A study of Mus musculus with 22 samples.

Results

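mmu-miR-149-5p, mmu-miR-326-3p, mmu-miR-342-3p and mmu-miR-346-5p are 4 of the 172 miRNAs listed in the small RNA tables of the arcuate nucleus (ARC) and the paraventricular nucleus (PVH) of the mouse hypothalamus. They were chosen as brain-enriched miRNAs whose hairpins lie inside host genes, and they were also selected on measured values, the levels of miR-149-5p in the maternal groups. It lay below the Off-C mean in every Off-Ob library of both nuclei. The maternal contrast therefore entered the choice, and it is described below without a test. All mice were wild type C57BL/6J males of 8 weeks on chow, and the brains were frozen after cervical dislocation and the nuclei cut out by laser capture. Off-Ob mice were born to obese dams, which ate a high-fat diet with condensed milk before and during pregnancy and lactation, and Off-C mice to lean dams on control chow. Each nucleus gave 5 Off-Ob and 6 Off-C libraries, and both nuclei were sequenced in 4 Off-Ob and 6 Off-C mice. The study's methods take 1 male of a litter per experiment, so that a library stands for a dam. The tissue holds every cell of the captured area, so neurons, glia and vessels are mixed.

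An intronic miRNA is cut from a hairpin within the intron of a longer transcript, often that of its host gene, and is loaded into Argonaute, where its seed pairs with target mRNAs to lower their translation and stability. The hosts have varied roles, and some are also active outside the brain. Gpc1 encodes glypican-1, a heparan sulfate proteoglycan of the cell surface. Arrb1 encodes beta-arrestin 1, which uncouples receptors from G proteins and acts as a signalling scaffold. Evl encodes an Ena/VASP protein that promotes actin filament growth, and Grid1 encodes the delta-1 subunit of the ionotropic glutamate receptor family, which organises synapses. The ARC senses hormones and nutrients and signals to the PVH, a main output nucleus for food intake and endocrine control.

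The mature sequences from RefSeq (GRCm38.p6) are shown because the members share no seed. They run 5′ to 3′, and the capitals mark the seed, bases 2 to 8.
mmu-miR-149-5p: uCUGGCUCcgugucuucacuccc
mmu-miR-326-3p: cCUCUGGGcccuuccuccagu
mmu-miR-342-3p: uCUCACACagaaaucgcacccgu
mmu-miR-346-5p: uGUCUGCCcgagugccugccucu
mmu-miR-330-5p: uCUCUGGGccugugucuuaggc
mmu-miR-342-5p: aGGGGUGCuaucugugauugag
The last 2 are the listed miRNAs tied to a member by sequence. mmu-miR-330-5p has the seed of miR-326-3p, and mmu-miR-342-5p is the other arm of the miR-342 hairpin. The GC content was 60.9% for miR-149-5p, 66.7% for miR-326-3p, 52.2% for miR-342-3p and 65.2% for miR-346-5p, against a median of 47.8% over the 149 of 172 listed miRNAs matched to RefSeq.

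All 4 hairpins lie in introns on the coding strand of their hosts. miR-149-5p (chr1:92850381-92850403, +) is in intron 1 of Gpc1 (ENSMUSG00000034220.7), 18.7 kb from the host's start. miR-326-3p (chr7:99552328-99552348, +) is in intron 1 of Arrb1 (ENSMUSG00000018909.15), 16.8 kb from the start. The miR-342 arms share intron 4 of Evl (ENSMUSG00000021262.15), with miR-342-3p at chr12:108658680-108658702 (+), 104 kb from the start. miR-346-5p (chr14:34894624-34894646, +) is in intron 2 of Grid1 (ENSMUSG00000041078.7), an intron of 123044 bases. Introns are numbered along the coding transcript with the most exons among those that span each hairpin in GENCODE M21. Among the 149 matched miRNAs, 56 (37.6%) lay inside a coding gene on the same strand. Host mRNA was not measured in these libraries.

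The deposited levels are log2(CPM + 1), where CPM are reads scaled to a common library size, and whole reads were recovered from them. Library totals ran over 22680 to 91790 reads in the ARC and 22495 to 61476 in the PVH. The 2 Off-Ob ARC libraries of mice F42A and F6A stood apart. let-7 reads made up 79.1% of F42A and 64.2% of F6A, and 33.8% to 46.8% of the rest of the ARC libraries. Correlation with ARC libraries had a median of 0.67 for F42A, 0.84 for F6A and at least 0.93 for the rest, and 20 of the 172 miRNAs had no read in F42A. The 4 members together made up 0.366% of F42A and 0.640% of F6A, and 1.32% to 1.77% of the other 9 ARC libraries. Of 9 neuron markers 7 were listed, among them miR-124-3p and miR-9-5p. They summed to 0.370% of F42A, 0.616% of F6A and 1.49% to 2.32% of the Off-C ARC libraries. In the same 2 libraries miR-150-5p, a microglia and leukocyte marker, took 0.0353% and 0.0466%, against 0.125% to 0.236% in Off-C ARC. The miR-126 arms, vessel markers, took 0.384% and 0.629%, against 0.665% to 2.18%. The oligodendrocyte marker miR-338-3p, at 0% and 0.0127%, against 0.00824% to 0.0309%, was low in F42A only. A high let-7 share leaves less for all other miRNAs. The neuron markers did not all go the same way. On the deposited scale Off-Ob minus Off-C in the ARC was 0.193 (SE 0.412) for miR-124-3p and 0.318 (SE 0.252) for miR-9-3p. It was below 0 for the rest, from -0.166 for miR-138-5p to -1.126 for miR-132-3p. In the PVH the neuron markers took 3.34% to 4.56% in Off-Ob and 2.82% to 4.36% in Off-C libraries. The red blood cell, pituitary and ependymal markers looked for were not among the listed miRNAs. Of the oligodendrocyte markers, miR-338-3p took at most 0.0400% of any library. miR-219-2-3p was also listed, but its share was not counted, since that marker had been looked for as miR-219a-2-3p. The part of depth or cell mixture in the results on the members was not tested, and fewer cells of a type and less RNA per cell cannot be told apart.

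miR-149-5p was the most abundant member in every library. Per nucleotide of mature length it stood at 285 ± 89.0 CPM in Off-Ob ARC and 385 ± 37.5 CPM in Off-C ARC (SD, n = 5 and 6). In the PVH it stood at 316 ± 27.5 CPM per nucleotide in Off-Ob and 377 ± 65.8 in Off-C. miR-326-3p followed, with 106 ± 53.6 CPM per nucleotide in Off-Ob ARC and 157 ± 14.3 in Off-C ARC, and 183 ± 32.2 in Off-Ob PVH and 180 ± 41.9 in Off-C PVH. The order of miR-149-5p over miR-326-3p held in 11 of 11 ARC and 11 of 11 PVH libraries. miR-342-3p ranged over group means of 52.0 to 67.1 CPM per nucleotide and lay below miR-326-3p in 9 of 11 ARC libraries, not in F6A or F42A, and in 11 of 11 PVH libraries. miR-346-5p was the lowest, with group means of 29.4 to 40.3 CPM per nucleotide. miR-342-3p and miR-346-5p were neighbours whose order did not hold in every library, since miR-342-3p was higher in 9 of 11 ARC libraries, not in RC5A or RC13A, and in 9 of 11 PVH libraries, not in RC12A or F42A. Ligation and amplification in small RNA libraries depend on sequence, so levels of different miRNAs are compared here as sequenced.

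Differences between the maternal groups were larger in the ARC than in the PVH for all 4 members on the deposited scale, and in the ARC they rested largely on F42A and F6A for 3 of them. miR-149-5p, miR-326-3p and miR-346-5p were lower on average in Off-Ob ARC, and miR-342-3p was higher. In the PVH miR-149-5p alone kept every Off-Ob library below the Off-C mean. These values chose the members or come from the same contrast, so no test is given. Over all 172 miRNAs the median log2 difference was -0.16 in the ARC and 0.05 in the PVH.

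**Figure D1:**
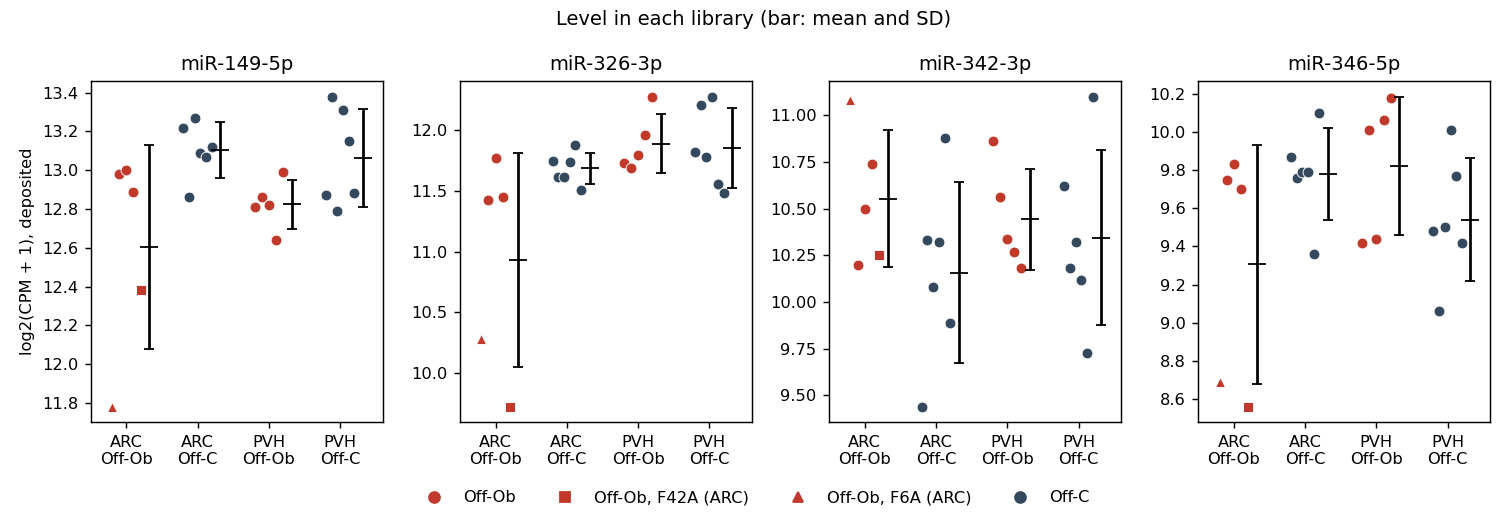
Level of each member as log2(CPM + 1) on the y axis, in the Off-Ob and Off-C libraries of ARC and PVH on the x axis. Each point is a library, the bars give mean and SD, and squares and triangles mark the ARC libraries of F42A and F6A, which are the 2 lowest ARC points for miR-149-5p, miR-326-3p and miR-346-5p but not for miR-342-3p.

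In the ARC, miR-149-5p had log2 levels of 11.78, 12.98, 13.00, 12.89 and 12.38 in the Off-Ob mice F6A, F12A, F13A, F41A and F42A. The 6 Off-C libraries ran from 12.86 over a median of 13.10 to 13.27. F6A and F42A lay below every Off-C library, while the other 3 overlapped the Off-C range. Behind these values were 57 to 715 reads in Off-Ob and 283 to 634 in Off-C libraries. The mean was 12.61 ± 0.53 in Off-Ob and 13.10 ± 0.14 in Off-C (SD, n = 5 and 6), a log2 difference of -0.50 (SE 0.23) or a ratio of 0.709. All 5 Off-Ob libraries were under the Off-C mean, the nearest being F13A at 13.00. Of all 172 miRNAs, 9 (5.23%) had this pattern in the ARC. Without F42A and F6A the difference was -0.15 (SE 0.15). On plain CPM, without scale factors, it was -0.85, where the median over all miRNAs was -0.52, and relative to the median it was -0.34 under either scaling. Scaling shifts all miRNAs of a library almost alike, so this agreement was fixed in advance.

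In the PVH, miR-149-5p had log2 levels of 12.81, 12.86, 12.82, 12.64 and 12.99 in the Off-Ob mice F12A, F13A, F14A, F41A and F42A. The Off-C libraries ran from 12.79 over a median of 13.02 to 13.38. The Off-Ob libraries lay within the lower part of the Off-C range, and F41A was below all of it. Reads numbered 216 to 379 in Off-Ob and 220 to 406 in Off-C libraries. The mean was 12.82 ± 0.13 in Off-Ob and 13.06 ± 0.25 in Off-C, a log2 difference of -0.24 (SE 0.16) or a ratio of 0.846. All 5 Off-Ob libraries were under the Off-C mean, the nearest being F42A, as for 6 of the 172 miRNAs (3.49%). miR-149-5p was the single miRNA with the pattern in both nuclei, 0.581% of those listed. On CPM without scale factors 4 of 5 Off-Ob PVH libraries were under the Off-C mean, so the choice of miR-149-5p depended on the scaling.

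miR-326-3p stood at 10.28, 11.43, 11.77, 11.45 and 9.72 in the ARC of the Off-Ob mice F6A, F12A, F13A, F41A and F42A. The Off-C libraries lay between 11.51 and 11.88 around a median of 11.68. F6A, F12A, F41A and F42A were below every Off-C library, and F13A was above the Off-C mean. The lowest value, in F42A, came from 9 of 22680 reads (0.0397%, 95% Wilson interval 0.0209% to 0.0754%). The mean was 10.93 ± 0.88 in Off-Ob and 11.69 ± 0.13 in Off-C, a log2 difference of -0.76 (SE 0.34), the largest in size of the 4. It was -0.14 (SE 0.17) without F42A and F6A.

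In the PVH, miR-326-3p was at 11.73, 11.69, 11.80, 11.96 and 12.28 in the Off-Ob mice F12A, F13A, F14A, F41A and F42A. The Off-C libraries ran from 11.48 over a median of 11.80 to 12.28. The groups overlapped throughout. The means were 11.89 ± 0.24 in Off-Ob and 11.85 ± 0.33 in Off-C, and differed by 0.04 (SE 0.19). F42A, the lowest ARC library for miR-326-3p, was the highest Off-Ob library in the PVH.

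miR-346-5p, the member of the Grid1 intron, had 8.69, 9.75, 9.83, 9.70 and 8.56 in the ARC of F6A, F12A, F13A, F41A and F42A. The Off-C libraries ran from 9.36 over a median of 9.79 to 10.10. F6A and F42A, with 17 and 4 reads, lay below every Off-C library, and the other 3 lay within the Off-C range. The mean was 9.30 ± 0.62 in Off-Ob and 9.78 ± 0.24 in Off-C, a log2 difference of -0.48 (SE 0.29), which was -0.02 (SE 0.21) without F42A and F6A and -0.83 on plain CPM. In the PVH, miR-346-5p was at 9.42, 10.01, 9.44, 10.06 and 10.18 in F12A, F13A, F14A, F41A and F42A. The Off-C libraries of the PVH ran from 9.06 over a median of 9.49 to 10.01. F41A and F42A were above every Off-C library, and the difference of 0.28 (SE 0.23) had the sign opposite to that in the ARC. A test of the difference between the nuclei was not made, because the maternal contrast had chosen the members.

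miR-342-3p was the member that stood higher in Off-Ob ARC, at 11.08, 10.20, 10.50, 10.74 and 10.25 in F6A, F12A, F13A, F41A and F42A. The Off-C libraries ran from 9.44 over a median of 10.20 to 10.88. Only F6A was above every Off-C library, and F12A, F13A, F41A and F42A lay within the Off-C range. The mean was 10.55 ± 0.36 in Off-Ob and 10.16 ± 0.48 in Off-C, a log2 difference of 0.40 (SE 0.27), and it was 0.32 (SE 0.28) without F42A and F6A. On CPM without scale factors the difference was 0.04, with a median of -0.52 over all miRNAs, so it was 0.56 above that median under either scaling. That agreement too was fixed in advance by the shared shift. In the PVH, miR-342-3p was at 10.86, 10.56, 10.34, 10.27 and 10.18 in F12A, F13A, F14A, F41A and F42A. The Off-C libraries of the PVH ran from 9.73 over a median of 10.25 to 11.10, around all Off-Ob values, and the difference was 0.10 (SE 0.24).

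**Figure D2:**
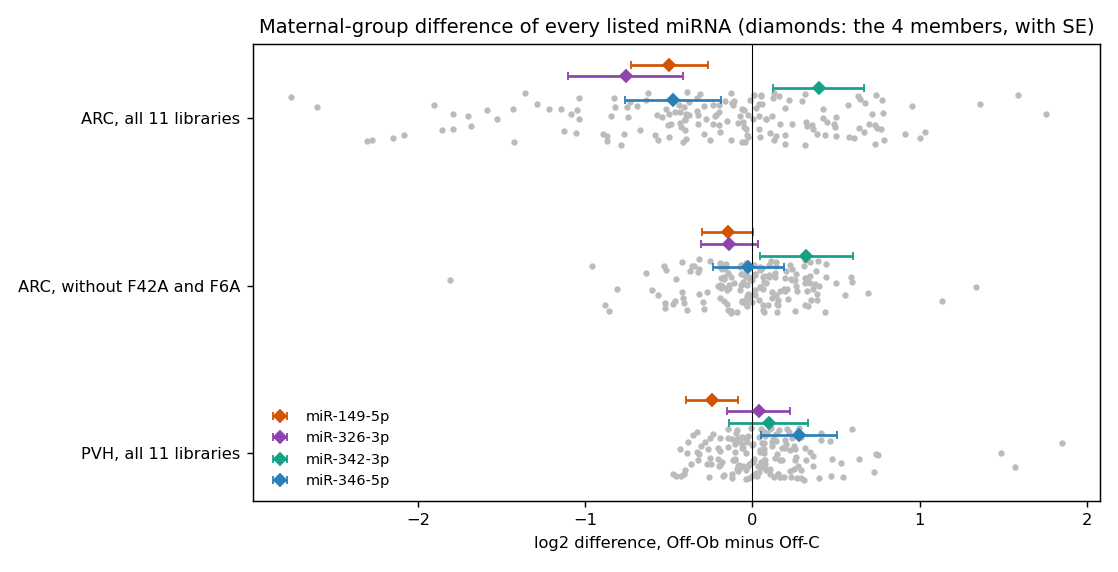
Log2 difference of Off-Ob minus Off-C on the x axis for the listed miRNAs, in the ARC, in the ARC without F42A and F6A, and in the PVH down the y axis. Diamonds are the members with SE and grey points the other miRNAs. The ARC values of miR-149-5p, miR-326-3p and miR-346-5p move to -0.15, -0.14 and -0.02 without the 2 libraries.

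The miRNAs tied to members by sequence are given beside them. mmu-miR-330-5p, which lies in an intron of Eml2, a microtubule-associated protein gene, had a mean of 10.74 ± 0.63 in Off-Ob ARC and 10.96 ± 0.32 in Off-C ARC, a difference of -0.22 (SE 0.29) that was 0.15 (SE 0.22) without F42A and F6A. The ratio of miR-326-3p to miR-330-5p reads, which needs no scaling, was 0.785, 1.46, 1.29, 1.32 and 1.00 in the ARC of F6A, F12A, F13A, F41A and F42A, against 1.38 to 2.14 with a median of 1.60 in Off-C ARC. In the PVH the ratio had a median of 1.72 (1.35 to 3.72) in Off-Ob and 1.88 (1.18 to 2.72) in Off-C. In the ARC 4 of 5 Off-Ob libraries had a ratio below every Off-C library, and F12A overlapped the Off-C range. Of these, F42A had 9 reads of each miRNA, and F6A had 51 reads of miR-326-3p and 65 of miR-330-5p. F13A and F41A, at 1.29 and 1.32, were close to the lowest Off-C ratio of 1.38. The ratio comes from the maternal contrast and is given as a description.

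mmu-miR-342-5p was the minor arm of its hairpin in every library. It had 2 to 14 reads in Off-Ob ARC and 4 to 11 reads in Off-C ARC libraries, and its mean log2 level was 7.21 ± 0.55 in Off-Ob and 7.16 ± 0.64 in Off-C. The reads of miR-342-3p per read of miR-342-5p had a median of 12.3 (5.29 to 18.0) in Off-Ob ARC and 7.96 (4.73 to 11.5) in Off-C ARC. In the PVH the medians were 6.29 (3.78 to 8.00) in Off-Ob and 8.07 (3.80 to 12.3) in Off-C. The groups overlapped in both nuclei, and the few 5p reads make each ratio imprecise.

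Reads of a member per read of miR-149-5p in the same library show the balance within the set without any scaling. For miR-342-3p the ratio in the ARC was 0.614, 0.146, 0.176, 0.224 and 0.228 in F6A, F12A, F13A, F41A and F42A, against 0.0726 to 0.219 with a median of 0.128 in Off-C. F6A, F41A and F42A were above every Off-C library, and F12A and F13A lay within the Off-C range. The summed reads behind this were 408 of miR-342-3p and 1832 of miR-149-5p in Off-Ob ARC, and 335 and 2636 reads in Off-C ARC. In the PVH the ratio had a median of 0.194 (0.143 to 0.259) in Off-Ob and 0.145 (0.0936 to 0.291) in Off-C, with the Off-Ob values inside the Off-C range. For miR-326-3p the ARC median was 0.352 in Off-Ob, with F42A lowest at 0.158, and 0.377 in Off-C. For miR-346-5p the ARC median was 0.109 in Off-Ob and 0.0999 in Off-C. In the PVH the miR-346-5p ratio had a median of 0.139 (0.0950 to 0.168) in Off-Ob and 0.0958 (0.0499 to 0.102) in Off-C, and F13A, F41A and F42A were above every Off-C library. These ratios belong to the contrast that chose miR-149-5p and are given as a description.

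**Figure D3:**
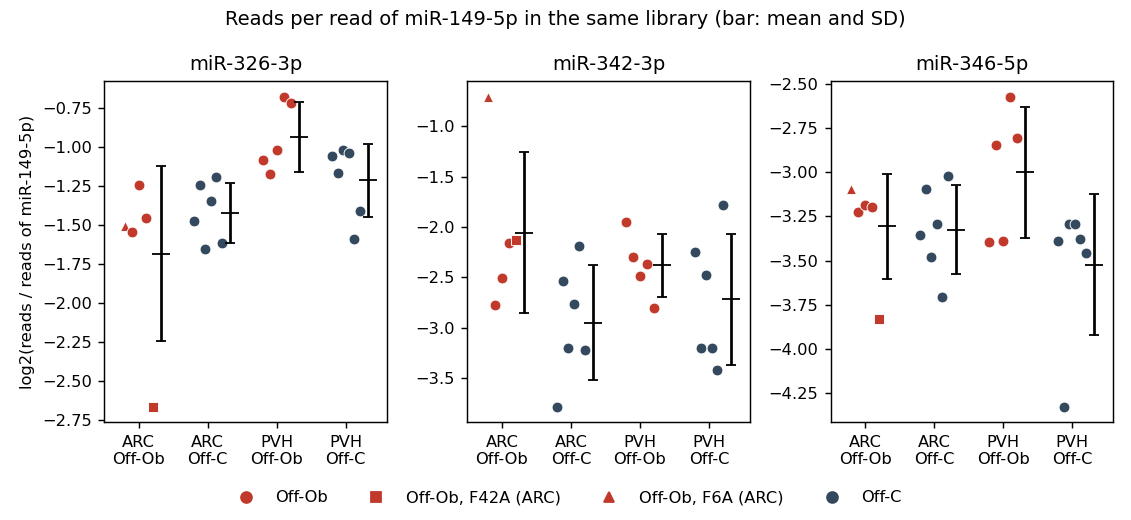
Reads of miR-326-3p, miR-342-3p and miR-346-5p per read of miR-149-5p in the same library, on a log2 scale on the y axis, for Off-Ob and Off-C libraries of ARC and PVH on the x axis. Points are libraries and bars mean and SD, and F6A has the highest miR-342-3p ratio (0.614) while F42A has the lowest miR-326-3p ratio (0.158).

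The members' level in the ARC was next compared with that in the PVH of the same mouse, a contrast that did not enter their choice. The library names carry a different prefix for each nucleus, so the nucleus and whatever run or pool the prefix marks cannot be told apart. None of the 4 members differed between the nuclei past the adjusted threshold. Since the tables of the nuclei had been scaled separately, reads were rescaled over the 20 libraries of the 10 mice with both, and tested by limma, with mouse as a block and p-values adjusted by Benjamini-Hochberg over 172 miRNAs at 0.05. That fit called 14 of 172 miRNAs (8.14%), 5 higher and 9 lower in the ARC. The split followed the scaling, with 2 higher and 16 lower on plain CPM and 2 higher and 32 lower on the deposited values. Leaving out RC11A gave 8 calls, and leaving out F12A, F41A, RC9A or RC12A gave 9.

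miR-149-5p was closest to the threshold. It averaged 13.18 ± 0.21 in the ARC and 12.80 ± 0.25 in the PVH (SD, n = 10 mice), a log2 difference of 0.38 (SE 0.14, 95% interval 0.08 to 0.68, limma adjusted p = 0.097), and it was higher in the ARC of 8 of 10 mice. The exceptions were RC8A, at -0.24, and F42A, at -0.09. Among Off-Ob mice the ARC minus PVH difference was 0.50 in F12A, 0.53 in F13A and 0.60 in F41A. Among Off-C mice it ran from -0.24 to 0.81. Without F42A the difference was 0.43 (SE 0.13) and passed the threshold (limma adjusted p = 0.044), and without the mouse as a block it did as well (limma adjusted p = 0.019). The size also depended on the scaling, since it was 0.04 on plain CPM and 0.02 on the deposited values, where the median over all miRNAs shifted to -0.39 and -0.41, against -0.05 in the joint scaling. Relative to that median it was 0.43 under each of these scalings, which was fixed in advance, since scaling shifts all miRNAs of a library almost alike.

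miR-346-5p averaged 9.84 ± 0.38 in the ARC and 9.52 ± 0.34 in the PVH, a log2 difference of 0.32 (SE 0.20, 95% interval -0.11 to 0.75, limma adjusted p = 0.33). It was higher in the ARC of 8 of 10 mice, including 6 of 6 Off-C mice, in which the difference was 0.57 (SE 0.25, limma adjusted p = 0.27). F42A was the largest exception, at -1.11. On plain CPM the difference over 10 mice was -0.02, so its direction was not fixed across scalings.

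miR-326-3p averaged 11.64 ± 0.59 in the ARC and 11.71 ± 0.30 in the PVH, a difference of -0.07 (SE 0.22, 95% interval -0.56 to 0.42, limma adjusted p = 0.85). F42A had -2.03, and without it the difference was 0.15 (SE 0.14), so this mouse set the sign. miR-342-3p averaged 10.45 ± 0.42 in the ARC and 10.23 ± 0.41 in the PVH, a difference of 0.23 (SE 0.24, 95% interval -0.31 to 0.76, limma adjusted p = 0.55), and on plain CPM it was -0.11. Its difference ran from -0.95 in RC5A to 1.58 in RC12A, and it was higher in the ARC of 7 of 10 mice. These intervals leave room for differences of either sign for miR-326-3p and miR-342-3p.

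**Figure D4:**
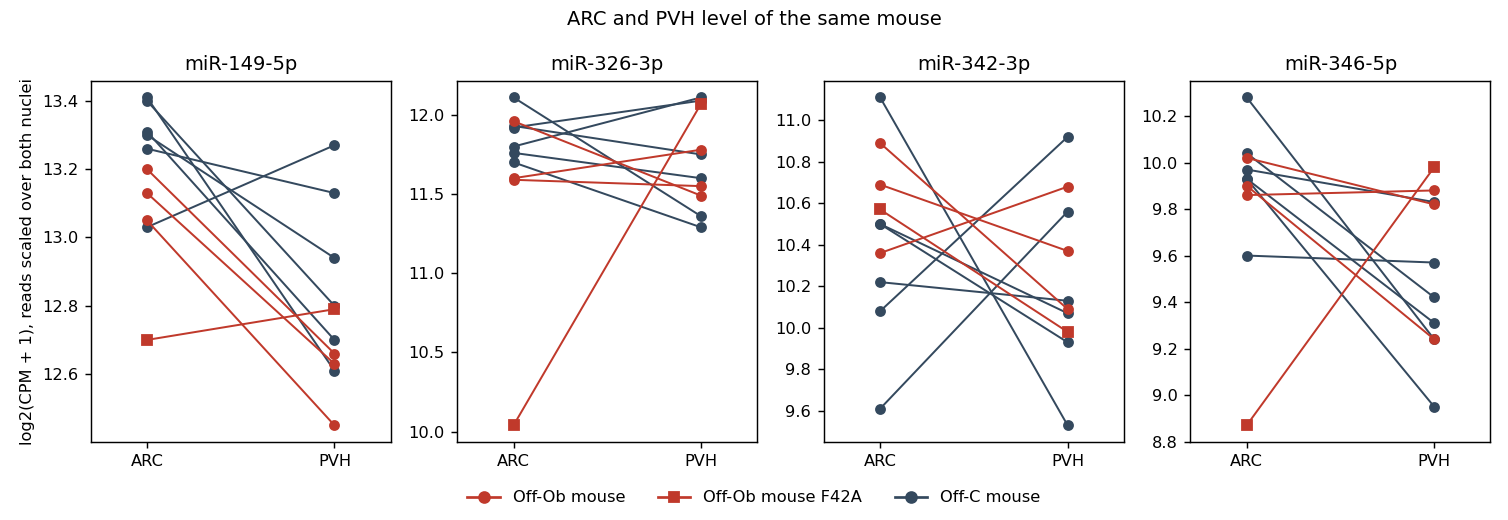
Level of each member as log2(CPM + 1), scaled over both nuclei, on the y axis, with ARC and PVH on the x axis and a line for each of the 10 mice. Lines for miR-149-5p are higher at the ARC end in 8 of 10 mice, with a mean difference of 0.38 (0.04 on plain CPM), while F42A, marked by squares, runs upwards for miR-149-5p, miR-326-3p and miR-346-5p.

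Within Off-Ob mice (n = 4) the fit called 0 of 172 miRNAs (0%). By unadjusted limma p under 0.05 it counted 25, and limma-voom called 3. The ARC minus PVH difference in Off-Ob mice was 0.39 for miR-149-5p, -0.42 for miR-326-3p, 0.35 for miR-342-3p and -0.07 for miR-346-5p (limma adjusted p of 0.31 to 0.91). Within Off-C mice (n = 6) it called 4 of 172 (2.33%), and the differences were 0.38 for miR-149-5p, 0.17 for miR-326-3p, 0.15 for miR-342-3p and 0.57 for miR-346-5p (limma adjusted p of 0.27 to 0.85). On plain CPM the value of miR-149-5p was -0.20 in Off-Ob and 0.20 in Off-C mice, and without F42A its jointly scaled value was 0.55 in Off-Ob mice. Whether the maternal groups differed in these values was not tested, for the reason given above. Neuron marker shares were lower in every ARC than in every PVH library, as was the share of the 1 listed microglia and leukocyte marker of 6, miR-150-5p, at 0.0353% to 0.280% in Off-Ob ARC and 0.125% to 0.236% in Off-C ARC, and 0.469% to 0.779% in Off-Ob PVH and 0.529% to 0.768% in Off-C PVH. The 2 listed vessel markers, both arms of miR-126, took 0.384% to 0.999% in Off-Ob ARC and 0.665% to 2.18% in Off-C ARC, and 1.51% to 2.11% in Off-Ob PVH and 1.51% to 3.03% in Off-C PVH, so the nuclei overlapped. The part of cell mixture in the nucleus differences was not tested.

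Of a list of 14 other brain-enriched intronic miRNAs, 8 were measured, of which 1 was higher in the ARC, 2 were lower and 5 did not pass the test, beside 14 of all 172 (8.14%). miR-7a-5p, enriched in neuroendocrine cells and with a hairpin in Hnrnpk, was higher by 0.69 (limma adjusted p = 0.0061), but by 0.35 on plain CPM, where it did not pass (limma adjusted p = 0.16). miR-128-3p, a neuronal miRNA of R3hdm1 and Arpp21 introns, fell by 0.84 in the ARC (limma adjusted p = 0.011), and miR-218-5p, of the Slit genes, fell by 1.26 (limma adjusted p = 0.0032). The median over the 8 was 0.09, against -0.05 over all 172. In the maternal contrast their median was -0.14 in the ARC and 0.00 in the PVH, close to the -0.16 and 0.05 of all listed miRNAs.

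Over the 10 mice of both maternal groups, the deposited ARC and PVH levels of a member are related below as a description, with no test, since these levels entered the choice of members. miR-342-3p had a Pearson r of -0.63 and a Spearman rho of -0.68, and r was -0.52 without the 2 mice farthest from the ARC median. For miR-346-5p r was -0.52 and rho -0.39, and r was -0.23 without the 2 farthest mice. For miR-326-3p r was -0.47 and rho -0.27, and r turned to 0.27 without RC12A and F42A, so it rested on those mice. For miR-149-5p r was -0.13 and rho -0.20, and r was -0.06 without RC9A and F42A.

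Within the ARC, relations between members over the 11 libraries of both maternal groups are likewise a description, and the values of a library share its total and scale factor. Pearson r was 0.84 for miR-149-5p with miR-326-3p, 0.85 for miR-149-5p with miR-346-5p and 0.88 for miR-326-3p with miR-346-5p, and the Spearman rho were 0.56, 0.75 and 0.51 in that order. Without F6A and F42A these r were 0.33, 0.24 and -0.42, so the relations rested on those libraries. miR-149-5p with miR-342-3p had an r of -0.59 and a rho of -0.65, and r was -0.60 without F6A and F42A. On plain CPM the r of miR-342-3p was positive with all 3 other members, at 0.23 with miR-149-5p, 0.47 with miR-326-3p and 0.34 with miR-346-5p, so its direction depended on the scaling. In the PVH r between members ran from -0.48 to 0.48.

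The listed miRNAs with the most similar pattern were found by Spearman's rho over the 22 libraries, on levels centred on the mean of the nucleus, as a description. For miR-149-5p they were miR-344-3p (0.69), miR-326-3p (0.69) and miR-434-3p (0.61). For miR-326-3p they were miR-409-5p (0.72), miR-149-5p (0.69) and miR-434-3p (0.67), so the members miR-149-5p and miR-326-3p were in each other's 3 nearest. For miR-346-5p they were miR-323-5p (0.75), miR-380-3p (0.70) and miR-30c-5p (0.67). Several of these neighbours had few reads in some or all libraries, so their ranks are imprecise. Reads a library were 0 to 15 for miR-323-5p, 0 to 36 for miR-409-5p, 0 to 63 for miR-434-3p and 3 to 39 for miR-344-3p. They were 1 to 200 for miR-380-3p and 1 to 239 for miR-30c-5p. miR-342-3p had other neighbours, miR-98-5p (0.71), miR-323-3p (0.71) and let-7g-5p (0.70). let-7g-5p and miR-98-5p belong to the let-7 family, whose share was highest in the ARC libraries of F42A and F6A. Without those 2 libraries the rho of miR-342-3p was 0.76 with miR-98-5p, 0.73 with miR-323-3p and 0.73 with let-7g-5p. The neighbours of the other members then had lower rho than over all 22 libraries, at 0.48 to 0.68. Over all 22, miR-342-3p was below 0 with every other member, at -0.58 with miR-149-5p, -0.29 with miR-326-3p and -0.49 with miR-346-5p.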

How the data were processed

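Small RNA of laser-captured ARC and PVH tissue was sequenced from TruSeq Small RNA libraries. The submitters' processing notes name Bowtie 1.2.3, GRCm38 and edgeR 3.36.0. The authors deposited log2 values, log2(CPM + 1), of 172 miRNAs with library totals and scale factors. Their methods name RPKM, but the values hold no length term. How miRNAs were annotated and filtered, and how multiply mapped reads were counted, is not given in the sources used here. All 3784 values came out within 0.01 of a whole read, 0 columns were left unused, and totals were 22495 to 91790 reads. Columns are tied to a group and to a mouse by the authors' identifier sheet, not to a single sample record. The sheet also names F14A for the ARC and F6A for the PVH, which were not analysed here.

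Members and lists were chosen with earlier results of these data known. Off-Ob minus Off-C was fitted per nucleus by limma 3.58.1 (R 4.3.3, eBayes with trend) on miRNAs that reached a CPM of 1 in 5 or more libraries, as all 172 did. ARC minus PVH used reads rescaled over both nuclei by trimmed-mean factors (30% of log ratios and 5% of levels trimmed), a pseudocount of 1 and the mouse as a block, with Benjamini-Hochberg adjustment. The pairing comes from the identifier sheet. Deviations of a mouse's ARC and PVH libraries from their group means correlated over miRNAs at a median of -0.04 (-0.42 to 0.15, 10 mice). In the fit with the mouse as a block, p-values measure the spread between mice of their ARC minus PVH difference. That spread was pooled over both maternal groups, also for the Off-Ob and Off-C contrasts. Correlations are given without a test, since they use the levels that chose the members. The Wilson interval covers counting error only, as reads were amplified by PCR and carry no molecular identifiers. The intervals of the ARC minus PVH differences come from the limma fit. Named miRNAs were the members, a listed opposite arm, listed miRNAs of the same seed, the 3 of most similar pattern per member, and those past the threshold in the comparison list. Alternatives were pseudocounts of 0.5, 10 and 100, no filter, a mean CPM of at least 100, plain CPM, median-ratio and trimmed-mean factors, the deposited values, limma-voom, no mouse block, leaving out F42A and F6A, and leaving out each library or mouse. The fits were tested on simulated counts drawn around a common mean profile, with no mouse effect and no libraries skewed like F42A and F6A. Those simulations therefore cannot check the mouse block or the behaviour with such libraries. Python 3.11.15, SciPy 1.17.1 and matplotlib 3.10.9 were used.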

Additional observations from a re-analysis of the deposited data

How the results depend on the processing

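Of the maternal differences, those of miR-326-3p and miR-346-5p in the ARC moved to -0.14 and -0.02 without F42A and F6A. That of miR-149-5p went from -0.50 to -0.15 (SE 0.15), which is counted below as within 1 SD. The count of miRNAs with every Off-Ob ARC library below the Off-C mean was 19 on plain CPM and 21 without F42A and F6A, against 9. Leaving out each library in turn gave -0.60 to -0.29 for miR-149-5p, -0.97 to -0.46 for miR-326-3p, 0.25 to 0.54 for miR-342-3p and -0.61 to -0.29 for miR-346-5p in the ARC, with 9 to 23 miRNAs below. In the PVH it gave -0.29 to -0.18, -0.06 to 0.12, -0.03 to 0.25 and 0.18 to 0.38 in the same order, with 3 to 11 miRNAs below. The ARC minus PVH differences followed the scaling, which moved all miRNAs together. Over all mice miR-342-3p was -0.11 on plain CPM and -0.13 on deposited values, and miR-346-5p -0.02 and -0.04. In Off-Ob mice miR-149-5p was -0.20 and -0.01, miR-342-3p -0.23 and -0.05, and miR-346-5p 0.05 by limma-voom. In Off-C mice miR-326-3p was -0.01 and -0.17, and miR-342-3p -0.03 and -0.19. Without the replicate block of the mouse, miR-149-5p kept 0.38 but passed the threshold (limma adjusted p = 0.019), and the fit called 31 miRNAs over all mice against 14, 5 in Off-Ob against 0 and 10 in Off-C against 4. On deposited values these counts were 34, 7 and 13. In Off-Ob mice pseudocounts of 10 and 100 called 4 and 3, plain CPM 1 and limma-voom 3. In Off-C mice a pseudocount of 0.5 and a mean CPM of at least 100 each called 7. Leaving out each mouse gave over all mice 0.33 to 0.45 for miR-149-5p, -0.16 to 0.15 for miR-326-3p, 0.08 to 0.36 for miR-342-3p and 0.24 to 0.48 for miR-346-5p, with 8 to 20 calls. In Off-Ob mice it gave 0.32 to 0.55, -0.72 to 0.11, 0.20 to 0.57 and -0.31 to 0.28 in that order, with 0 calls each time, and in Off-C mice 0.29 to 0.50, 0.05 to 0.26, -0.14 to 0.37 and 0.48 to 0.68, with 2 to 12 calls. Among correlations, r between ARC and PVH turned to 0.27 for miR-326-3p without the 2 farthest mice. In the ARC r turned to 0.12 for miR-326-3p with miR-342-3p and -0.42 for miR-326-3p with miR-346-5p without the 2 farthest libraries. In the PVH it turned to -0.17 for miR-149-5p with miR-326-3p, 0.09 for miR-149-5p with miR-346-5p and -0.31 for miR-326-3p with miR-346-5p. On plain CPM it turned to 0.23 for miR-149-5p with miR-342-3p, 0.47 for miR-326-3p with miR-342-3p and 0.34 for miR-342-3p with miR-346-5p in the ARC, and 0.31 for miR-149-5p with miR-346-5p in the PVH. The cause of these changes was not tested. The remaining 477 values stayed on their side of the threshold, within 1 SD of the main value where no test was made, within 1.5 times for a count, or kept their sign for a correlation. Among the 4 members depth limits miR-346-5p most, with 4 to 78 reads a library.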

Other observations

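The 52 other listed miRNAs inside a coding gene on the same strand had a median ARC minus PVH difference of 0.23 over the 10 mice, with 20 of 52 below 0, against a median of -0.05 with 92 of 172 below 0 over all listed miRNAs. Of the 52, 3 were higher and 4 lower in the ARC past the limma adjusted threshold, beside 5 higher and 9 lower of all 172 (8.14%). Their median maternal difference was -0.06 in the ARC and 0.05 in the PVH, and 3 of them in the ARC and 0 in the PVH had every Off-Ob library below the Off-C mean, beside 9 (5.23%) and 6 (3.49%) of all 172.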
